A study of Mus musculus with 23 samples.

Results

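The 8 genes described here encode receptors for the neurotrophins and for ligands of the GDNF family, namely Ngfr, Ntrk2, Ntrk3, Sort1, Gfra1, Gfra2, Gfra3 and Ret. They were taken by their GRCm38 gene symbols and not by a threshold on a value, but with earlier results of these data known. All 8 were among the 43068 genes of the crush tables and the 22880 genes of the inducible knockout tables, with 25 of 105375 and 24 of 69896 transcripts. RNA from mouse sciatic nerve (SN), the large mixed nerve of the hind limb, was sequenced in 23 libraries.

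The crush libraries came from wild-type C57bl6 mice (C57BL/6J in the study's methods), male and 2 months old at surgery. They hold 4 crushed nerves, taken distal to the injury 3 days post crush, 4 contralateral nerves from the uninjured side of crushed mice, and 3 uncrushed nerves from mice that had surgery but no crush. The inducible knockout (iKO) libraries hold 3 nerves each of P0-CreERT2 -/+ Dicer1 flox/flox (Dicer iKO) and P0-CreERT2 -/+ Dgcr8 flox/flox (Dgcr8 iKO) mice. Their controls, also 3 nerves each, were P0-CreERT2 -/- with the same homozygous floxed allele, and mutants and controls alike received tamoxifen. Injections were given on 5 days at 8 to 10 weeks of age, mice of either sex were used, and nerves were taken 3 months post tamoxifen. Dicer cuts precursors into mature microRNAs and Dgcr8 acts one step earlier with Drosha, so each deletion affects the microRNA pathway, through a promoter active in myelinating Schwann cells (SCs) and not in the other cells of the nerve. Mutants had been preselected by morphology. Nothing in the labels pairs a crushed nerve with its contralateral nerve by number. Tests of crushed against contralateral nerves therefore treat as independent nerves that may come from the same mouse.

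Neurotrophins such as BDNF and NT-3 signal through the Trk receptor tyrosine kinases and through p75NTR, the product of Ngfr, whose partner sortilin (Sort1) binds proneurotrophins. GDNF family ligands bind a GPI-anchored GFRα subunit, encoded among the members by Gfra1, Gfra2 or Gfra3, which brings in the kinase Ret. In peripheral nerve, p75NTR is a classical marker of immature, Remak and injury-reactive SCs, and GDNF and BDNF made by denervated SCs act on regrowing axons.

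Library totals ran from 6617716 to 12806066 counts in the crush and from 5594859 to 10143244 in the iKO experiment. A count of 3 equals 0.234 to 0.453 CPM in the crush and 0.296 to 0.536 CPM in the iKO libraries. CPM are counts scaled to a common library size, here also by library composition (TMM) within an experiment. The 2 experiments were made with different library kits according to the labels, so no level is compared between them. Over the whole gene, Dicer1 was 81.3 to 82.1 CPM in Dicer iKO and 87.4 to 90.5 CPM in its controls (log2 fold change −0.11, SE 0.08, adjusted p = 0.357). Dgcr8 was 39.4 to 54.0 CPM in Dgcr8 iKO and 35.4 to 41.8 CPM in its controls (0.22, SE 0.15, adjusted p = 0.233). These counts include exons outside the floxed segment and cells without Cre, so they check the genotype labels only weakly. By PCR, the study reports reduced mRNA of the deleted gene in each mutant, and reduced levels of an abundant microRNA in both.

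Nerve markers moved strongly with the crush. All 8 myelinating SC markers fell, their summed level being 1116 to 1756 CPM in crushed, 41916 to 44797 CPM in uncrushed and 43769 to 57115 CPM in contralateral nerves. The 6 repair SC markers tested rose (784 to 1145 against 45.8 to 49.5 CPM in uncrushed nerves), as did all 8 macrophage markers (326 to 624 against 68.7 to 71.9 CPM). The part of these shifts in the receptor results was not tested. In RNA of a whole nerve, fewer cells of a type and less RNA per cell cannot be told apart.

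Of the 8 receptors, 7 passed the filter on low counts in the comparison of crushed with uncrushed nerves. Ngfr and Gfra1 were called higher and Ntrk3 and Sort1 lower, where a call needs at least a 2-fold change and an adjusted p of at most 0.05 by edgeR's quasi-likelihood test. These are 2 of 7 higher and 2 of 7 lower, beside 15.3% and 21.1% of all tested genes. Ntrk2, Gfra2 and Ret passed the adjusted p but not the 2-fold limit. Against contralateral nerves all 8 were tested, with the same 2 higher and with Ntrk3, Sort1, Gfra3 and Ret lower, that is 2 of 8 and 4 of 8 beside 14.6% and 13.6% of all genes.

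**Figure D1:**
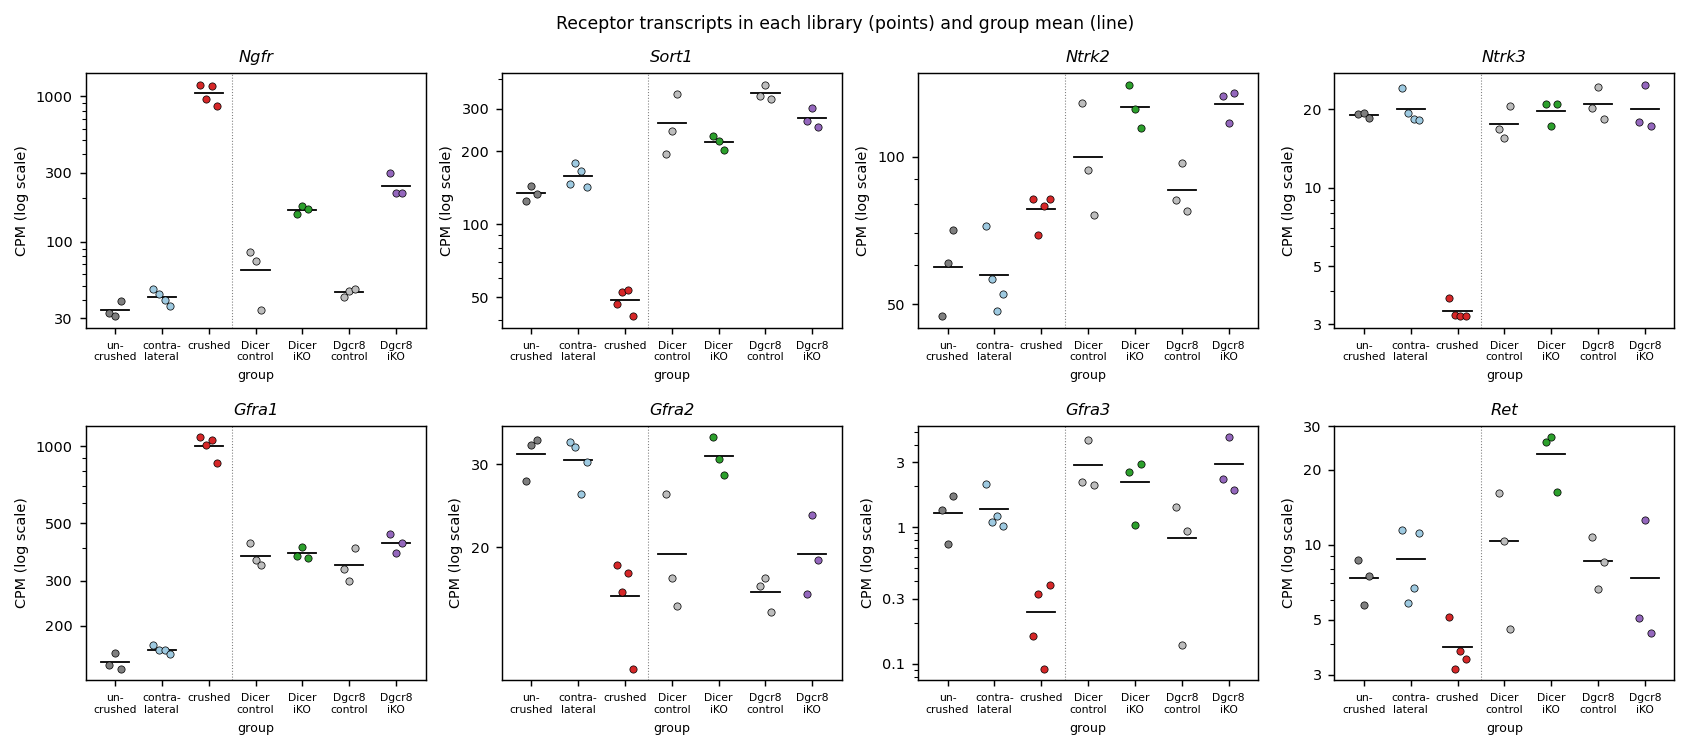
Each panel plots one receptor's CPM on a log axis for each library (points) with the mean of its group (line), crush libraries left of the dotted line and iKO libraries right of it. The 4 crushed nerves, at 859 to 1202 CPM of Ngfr and 862 to 1083 CPM of Gfra1, sit above every uncrushed and contralateral nerve, and those of Ntrk3 and Sort1 sit below.

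Ngfr (ENSMUSG00000000120, GRCm38 chr11:95568818-95587735, minus strand) had the largest change among the members. Crushed nerves 1 to 4 held 1202, 964, 1186 and 859 CPM. Uncrushed nerves held 32.5, 30.8 and 39.1 CPM, and contralateral nerves 47.7, 44.0, 39.9 and 36.5 CPM. The lowest crushed nerve stood far above the highest nerve of either reference group. The difference was 33.2-fold against uncrushed (log2 fold change 5.05, SE 0.17, adjusted p = 2.84e-10) and 25.2-fold against contralateral nerves (4.66, SE 0.14, adjusted p = 1.87e-12). Leaving out any one nerve kept the first value between 4.95 and 5.16.

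Sort1 (ENSMUSG00000068747, chr3:108284082-108361511, plus strand), the sortilin partner of p75NTR and a sorting receptor of the trans-Golgi network, moved the other way. Its level was 46.6, 52.2, 53.6 and 41.6 CPM in crushed nerves, 125, 144 and 133 CPM in uncrushed nerves, and 147, 179, 166 and 142 CPM in contralateral nerves. The crushed nerves lay below all 7 others. Sort1 fell by 1.37 on the log2 scale against uncrushed (SE 0.10, adjusted p = 1.69e-07) and fell by 1.70 against contralateral nerves (SE 0.10, adjusted p = 1.96e-09). Its protein-coding transcripts, named after their values were seen, parted. Sort1-201 fell by 1.99 against uncrushed (adjusted p = 0.000188) and by 2.36 against contralateral nerves (adjusted p = 1.34e-05). Sort1-203 was at −0.20 and −0.17 and was not called (adjusted p = 0.633 and 0.672).

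Gfra1 (ENSMUSG00000025089, chr19:58235604-58455909, minus strand) encodes the GDNF-binding subunit. Crushed nerves held 1083, 1012, 1059 and 862 CPM, uncrushed nerves 141, 156 and 136 CPM, and contralateral nerves 168, 160.4, 160.3 and 155 CPM. The groups did not overlap. The difference was 7.46-fold against uncrushed (log2 2.90, SE 0.12, adjusted p = 1.88e-09) and 6.30-fold against contralateral nerves (2.66, SE 0.09, adjusted p = 5.33e-12). Leaving out single nerves moved the first value between 2.83 and 3.00 only.

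The GFRα subunit genes Gfra2 and Gfra3 were lower in crushed nerves. Gfra2 (ENSMUSG00000022103, chr14:70890120-70979838, plus strand), which binds neurturin, was 18.3, 16.1, 17.7 and 11.1 CPM in crushed, 27.6, 33.0 and 33.8 CPM in uncrushed, and 33.4, 32.6, 25.9 and 30.3 CPM in contralateral nerves. No crushed nerve reached the lowest reference nerve. The log2 fold changes of −0.88 (SE 0.15, adjusted p = 0.000226) and −0.94 (SE 0.14, adjusted p = 2.54e-05) stayed just under the 2-fold limit. That limit was passed against contralateral nerves without contralateral nerve 3 (−1.01), crushed nerve 1 (−1.05) or crushed nerve 3 (−1.02).

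Gfra3 (ENSMUSG00000024366, chr18:34689898-34720387, minus strand), the artemin-binding subunit, was near the detection limit. Crushed nerves held 2, 4, 1 and 4 counts, uncrushed nerves 15, 6 and 10, and contralateral nerves 22, 14, 12 and 10. Crushed nerves thus ranged from 0.0917 to 0.377 CPM, around the 3-count floor, and all reference nerves were higher, at 0.750 to 2.07 CPM. It failed the filter against uncrushed nerves, where the ratio of summed counts per library size was 0.192 (95% interval 0.0869 to 0.392, counting error only). Against contralateral nerves it was called lower (log2 −2.44, SE 0.44, adjusted p = 0.000224; count ratio 0.177, interval 0.0835 to 0.340).

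Ret (ENSMUSG00000030110, chr6:118151745-118197718, minus strand), the signalling kinase shared by the GFRα subunits, held 5.14, 3.18, 3.76 and 3.49 CPM in crushed nerves. Uncrushed nerves held 8.72, 5.75 and 7.50 CPM and contralateral nerves 11.5, 5.81, 6.72 and 11.2 CPM. Every crushed nerve was lower, though crushed nerve 1 came close to the lowest reference nerves. The log2 fold change was −0.82 against uncrushed (SE 0.22, adjusted p = 0.00637) and −1.14 against contralateral nerves (SE 0.23, adjusted p = 0.000609). The second call rested on the 2-fold limit, since the value was −0.98 without contralateral nerve 1 and −0.97 with no filter on counts, while the first became −1.01 without crushed nerve 1.

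Ntrk3 (ENSMUSG00000059146, chr7:78175959-78738012, minus strand) encodes TrkC, the receptor of NT-3. It held 3.77, 3.26, 3.21 and 3.21 CPM in crushed nerves, 19.2, 19.4 and 18.6 CPM in uncrushed nerves, and 24.1, 19.3, 18.4 and 18.2 CPM in contralateral nerves. The nerves within each group were close and the groups far apart. Ntrk3 fell by 2.40 on the log2 scale against uncrushed (SE 0.14, adjusted p = 2.03e-08) and fell by 2.55 against contralateral nerves (SE 0.14, adjusted p = 7.91e-10).

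Ntrk2 (ENSMUSG00000055254, chr13:58806569-59133970, plus strand) encodes TrkB, the receptor of BDNF and NT-4. Its level was 81.9, 69.1, 79.2 and 82.1 CPM in crushed, 47.2, 60.5 and 70.9 CPM in uncrushed, and 72.2, 56.4, 48.4 and 52.5 CPM in contralateral nerves. Crushed nerve 2 lay within the range of the reference nerves, so the groups overlapped. The log2 fold changes were small, 0.51 (SE 0.13, adjusted p = 0.00442) and 0.46 (SE 0.12, adjusted p = 0.00336).

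**Figure D2:**
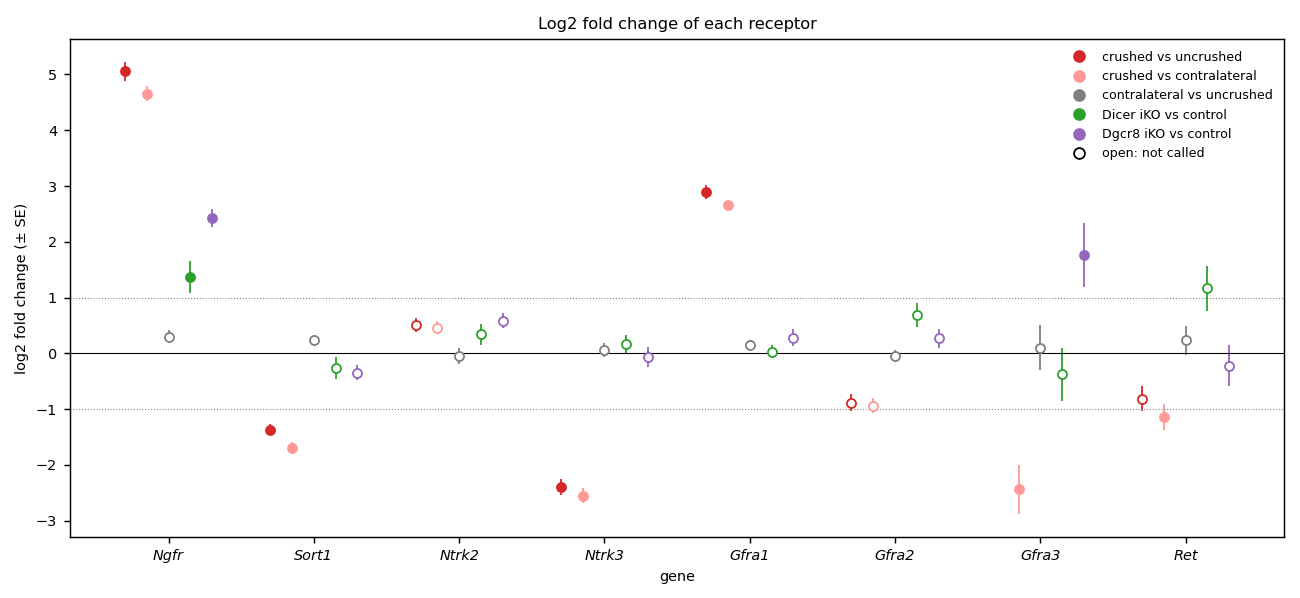
Log2 fold change (y axis, bars are ± 1 SE) of each receptor (x axis) in 5 comparisons (colours), filled where called and open where not, with dotted lines at the 2-fold limit. Ngfr is above 0 with a filled point in both crush comparisons and both iKO comparisons, at 5.05, 4.66, 1.37 and 2.43, whereas Gfra1 is called after crush but lies at 0.03 and 0.28 in the iKO comparisons.

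Contralateral and uncrushed nerves were compared to see whether the uninjured side differed from nerves of mice without a crush. None of the 8 receptors was called in either direction by edgeR's quasi-likelihood test, by edgeR's exact test or by DESeq2. By the quasi-likelihood test 2 of 8 had an unadjusted p under 0.05, as had 3165 of all 17722 genes tested. Over all genes 0% were called higher and 0% lower. The log2 fold changes ran from −0.05 for Ntrk2 to 0.30 for Ngfr (SE 0.11, adjusted p = 0.213), and Sort1 was at 0.24 (SE 0.10, adjusted p = 0.245).

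TrkB and TrkC are each made as full-length receptors with a kinase domain and as truncated receptors that lack it, and the transcripts part within the coding sequence after the transmembrane segment. The deposited tables hold 2 of the 10 Ntrk2 transcripts and 6 of the 20 Ntrk3 transcripts in the GENCODE M21 annotation, 5 of the latter in the iKO tables. The sequences below show where the forms part, because the tests that follow turn on telling them apart. Each line is read 5′ to 3′ on the coding strand of GRCm38. The 18 lower-case bases end the shared reading frame, and capitals mark the bases of that form alone, up to its stop codon for the truncated forms and the first 60 bases for the full-length forms.

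Ntrk2-202: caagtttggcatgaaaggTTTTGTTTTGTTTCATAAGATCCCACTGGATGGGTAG
Ntrk2-201: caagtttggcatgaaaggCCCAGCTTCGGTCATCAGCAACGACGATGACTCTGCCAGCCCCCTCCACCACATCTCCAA
Ntrk3-202: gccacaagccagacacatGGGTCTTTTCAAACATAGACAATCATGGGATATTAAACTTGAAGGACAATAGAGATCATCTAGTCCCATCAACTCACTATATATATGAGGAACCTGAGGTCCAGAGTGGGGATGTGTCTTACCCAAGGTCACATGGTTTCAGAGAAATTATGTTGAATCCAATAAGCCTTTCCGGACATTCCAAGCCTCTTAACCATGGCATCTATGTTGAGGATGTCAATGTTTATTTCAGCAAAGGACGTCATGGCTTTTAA
Ntrk3-201: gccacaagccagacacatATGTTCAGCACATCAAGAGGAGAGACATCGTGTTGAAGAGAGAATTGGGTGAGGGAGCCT

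The capitals of truncated Ntrk2-202 lie in 1 coding exon at chr13:58932024-58932060 on the plus strand, and those of full-length Ntrk2-201 at chr13:58985803-58985862. Both follow 464 shared codons, after which the truncated frame has 11 codons of its own and the full-length frame 356. The capitals of truncated Ntrk3-202 span 2 coding exons within chr7:78302629-78304426 on the minus strand, and those of full-length Ntrk3-201 lie at chr7:78260355-78260414. Here 528 codons are shared, followed by 83 of the truncated and 296 of the full-length frame. For both genes these numbers are of complete codons, and the codon that spans the parting point is counted neither as shared nor as own.

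Most Ntrk2 counts were assigned to the truncated transcript. Ntrk2-202 held 77.9, 65.4, 75.2 and 79.2 CPM in crushed, 40.4, 48.7 and 61.6 CPM in uncrushed, and 62.8, 50.5, 43.0 and 43.5 CPM in contralateral nerves. Every crushed nerve was above every reference nerve, but the log2 fold changes of 0.62 (SE 0.15, adjusted p = 0.0167) and 0.54 (SE 0.13, adjusted p = 0.0121) stayed under 2-fold. Full-length Ntrk2-201 went the other way, at 4.05, 3.71, 4.02 and 2.92 CPM in crushed, 6.78, 11.8 and 9.28 CPM in uncrushed, and 9.33, 5.85, 5.35 and 8.99 CPM in contralateral nerves. It fell by 1.28 on the log2 scale against uncrushed (SE 0.24, adjusted p = 0.00532) and fell by 1.02 against contralateral nerves (SE 0.24, adjusted p = 0.00973). The second call sat at the 2-fold limit and was not made without contralateral nerve 1 (−0.86), contralateral nerve 4 (−0.89) or crushed nerve 4 (−0.93), with RLE scaling (−0.96), with no filter on counts (−0.88, adjusted p = 0.0505) or with a replicate block (−0.99).

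Both Trk genes together had 5 transcripts tested against uncrushed nerves, 4 of them lower and 0 higher, beside 12.8% lower and 12.2% higher of all transcripts. Against contralateral nerves 3 of 5 were lower and 0 higher, beside 12.2% and 11.9%. Full-length Ntrk3-201 held 1.58, 1.05, 0.636 and 0.889 CPM in crushed nerves and 4.64 to 10.1 CPM in the 7 reference nerves (log2 −2.66, SE 0.41, adjusted p = 0.00242 against uncrushed, and −2.74, SE 0.31, adjusted p = 0.000171 against contralateral). Truncated Ntrk3-202 held 1.62, 0.0570, 1.47 and 1.67 CPM in crushed nerves, where crushed nerve 2 stood apart below the 3-count floor, and 6.37 to 12.5 CPM in the reference nerves (−2.81, SE 0.72, adjusted p = 0.0200, and −2.93, SE 0.62, adjusted p = 0.00560). Its first call was not made without uncrushed nerve 1 (adjusted p = 0.0557) or uncrushed nerve 2 (adjusted p = 0.0647). Ntrk3-204, which keeps an intron, was lower against uncrushed nerves (−1.49, SE 0.36, adjusted p = 0.0166) and at −1.27 against contralateral nerves (SE 0.49, adjusted p = 0.0688). The first was not called without uncrushed nerve 2 (adjusted p = 0.0818) or with no filter on counts (adjusted p = 0.133), and the second was without contralateral nerve 1 (−1.52, adjusted p = 0.0293). Between contralateral and uncrushed nerves 0 of 6 Trk transcripts tested were called by edgeR, 0 had an unadjusted p under 0.05, and 0% of all transcripts were called in either direction.

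The full-length share of the summed TPM (RSEM's counts scaled by transcript length and library) of full-length and truncated transcripts sets the forms against each other within a library. For Ntrk2 it was 4.0, 4.29, 4.03 and 3.09% in crushed nerves, 11.5, 16.4 and 11.3% in uncrushed nerves, and 10.6, 8.46, 9.68 and 14.1% in contralateral nerves. The crushed share was 3.85% ± 0.525 (SD, n = 4), below every reference nerve. It differed by −9.20 percentage points from uncrushed and by −6.87 points from contralateral nerves, each with an exact two-sided permutation p of 0.0286, the smallest these group sizes allow, and 0.143 after adjustment over the 10 shares compared. In crushed nerves the share rested on a mean of 0.0750 TPM of Ntrk2-201, deposited to few decimals. Computed from counts per kilobase, an alternative chosen after seeing the data, it was 3.92% in crushed, 13.2% in uncrushed and 10.8% in contralateral nerves. For Ntrk3 the share was 38.9, 100, 22.2 and 29.4% in crushed, 38.5, 26.4 and 52.4% in uncrushed, and 38.6, 49.5, 31.7 and 48.3% in contralateral nerves. The groups overlapped (exact permutation p = 0.886 and 0.943), with crushed nerve 2 apart because its truncated TPM was listed at 0.

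**Figure D3:**
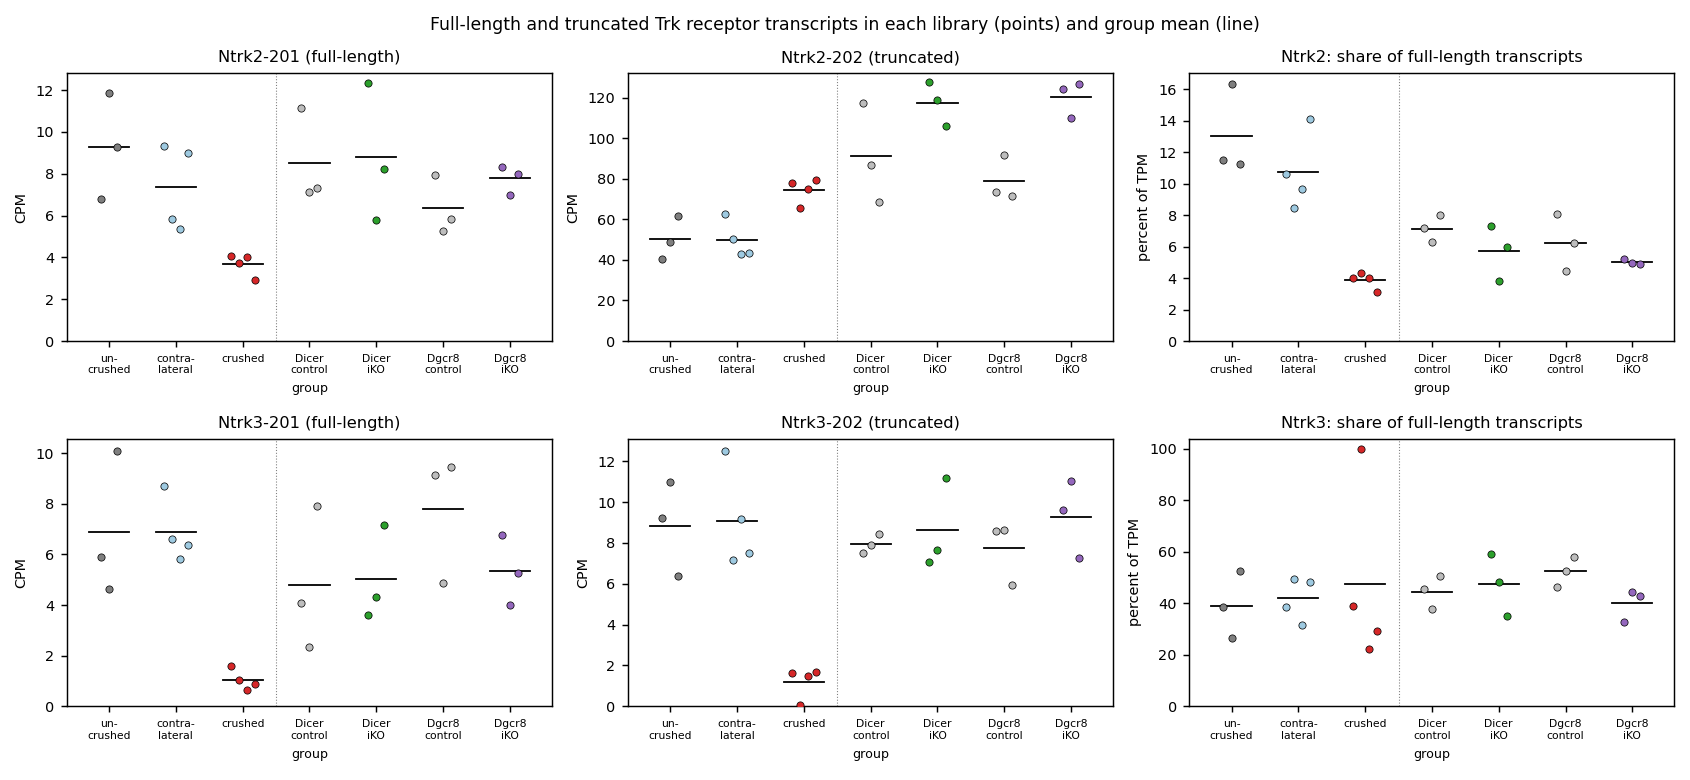
CPM of the main full-length (left) and truncated (middle) transcript of Ntrk2 (top) and Ntrk3 (bottom), and the full-length share of full-length plus truncated TPM in percent (right), for each library (points) with group means (lines). The Ntrk2 share of the crushed nerves, 3.09 to 4.29%, is below all 7 reference nerves of that experiment, while for Ntrk3 both forms are low after crush and the shares overlap.

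The iKO libraries address whether loss of microRNA processing in adult SCs moves the same genes. In Dicer iKO nerves 1 receptor was called higher, Ngfr, and 0 of 8 lower, beside 7.37% higher and 1.64% lower of all genes. DESeq2 and edgeR's exact test called 2 higher, Ngfr and Ret, and 0 lower. By the quasi-likelihood test 3 of 8 had an unadjusted p under 0.05, as had 4736 of all 13045 genes tested. In Dgcr8 iKO nerves 2 receptors were called higher, Ngfr and Gfra3, and 0 of 8 lower by all 3 tests, beside 13.4% and 6.99% of all genes. Here 4 of 8 had an unadjusted p under 0.05 by the quasi-likelihood test, as had 6931 of all 13252 genes tested.

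Marker levels moved with genotype here too. Macrophage markers summed to 737 to 1062 CPM in Dicer iKO against 126 to 378 CPM in controls, and 584 to 1014 against 132 to 153 CPM for Dgcr8, and fibroblast markers to 19247 to 20500 against 4559 to 14767 CPM and 14507 to 17426 against 6065 to 8016 CPM. The myelinating SC sum was 22812 to 29305 against 30436 to 51353 CPM in the Dicer comparison, with 0 of 8 called by edgeR's quasi-likelihood test and 5 of 8 at an unadjusted p under 0.05, and 14272 to 28426 against 46720 to 49254 CPM in the Dgcr8 comparison, with 4 of 8 lower. Repair SC markers rose in both (5 of 6 and 6 of 6 called). Of 8 macrophage markers, 6 were called higher for Dicer and 7 for Dgcr8. Of 7 fibroblast markers, 3 were called higher for Dicer (median log2 fold change 0.58) and 5 for Dgcr8 (median 1.42), so the fibroblast sums do not stand for every marker. The part of these sums in the receptor results was not tested.

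Ngfr held 155, 175 and 169 CPM in Dicer iKO nerves and 85.5, 74.0 and 34.3 CPM in their controls, which differed more than 2-fold among themselves. All iKO nerves were higher, by 2.59-fold (log2 1.37, SE 0.29, adjusted p = 0.0173). The call was not made without Dicer control 2 (adjusted p = 0.0565), Dicer iKO 2 (adjusted p = 0.0692) or Dicer iKO 3 (adjusted p = 0.0731), and without Dicer control 3 the value was 1.06 (adjusted p = 0.00140). The Dicer controls 1, 2 and 3 also differed in the same order in macrophage markers, at 378, 249 and 126 CPM, and in fibroblast markers, at 14767, 10985 and 4559 CPM, and the part of this in the Ngfr level was not tested. In Dgcr8 iKO nerves Ngfr was 295, 216 and 217 CPM against 41.7, 46.0 and 47.5 CPM in tight controls. This was a 5.39-fold difference (2.43, SE 0.16, adjusted p = 2.14e-06), between 2.26 and 2.51 without any one nerve.

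Sort1 was not called in either mutant. It held 231, 221 and 203 CPM in Dicer iKO against 195, 243 and 345 CPM in controls, with overlap (log2 −0.26, SE 0.20, adjusted p = 0.391). In Dgcr8 iKO nerves it held 266, 302 and 253 CPM, all below the 338, 377 and 328 CPM of controls (−0.35, SE 0.14, adjusted p = 0.0598).

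Ntrk2 was above its controls in all Dgcr8 iKO nerves, at 133, 117 and 135 against 81.5, 97.1 and 77.3 CPM (log2 0.59, SE 0.13, adjusted p = 0.00349), under the 2-fold limit. In the Dicer comparison it was 140.0, 125 and 114 against 129, 94.0 and 76.1 CPM, with overlap (0.35, SE 0.19, adjusted p = 0.225). No Trk transcript was called by edgeR in either mutant, 0 of 5 for Dicer with 0 at an unadjusted p under 0.05, and 0 of 6 for Dgcr8 with 1. The background was 0.779% higher and 0.174% lower of all transcripts for Dicer, and 6.59% and 3.67% for Dgcr8. Truncated Ntrk2-202 carried the Dgcr8 difference, at 124, 109.9 and 127 against 73.5, 91.9 and 71.5 CPM (0.65, SE 0.13, adjusted p = 0.0235), beside 8.34, 7.0 and 8.01 against 7.95, 5.24 and 5.83 CPM of full-length Ntrk2-201 (0.33, SE 0.27, adjusted p = 0.492).

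The full-length share of Ntrk2 was 5.01% ± 0.153 (SD, n = 3) in Dgcr8 iKO and 6.26% ± 1.83 (n = 3) in controls (exact permutation p = 0.4), and 5.70% ± 1.76 in Dicer iKO against 7.15% ± 0.859 in controls (exact permutation p = 0.3). Ntrk3 as a gene differed by less than its spread in both mutants, with 20.9, 17.3 and 20.9 against 16.8, 15.5 and 20.5 CPM for Dicer (log2 0.17, SE 0.16, adjusted p = 0.489) and 17.9, 24.8 and 17.3 against 20.2, 24.4 and 18.3 CPM for Dgcr8 (−0.06, SE 0.18, adjusted p = 0.802). Its full-length share was 39.9% ± 6.25 in Dgcr8 iKO and 52.3% ± 5.93 in controls, a difference of −12.4 points (exact permutation p = 0.1, adjusted 0.333), and 0.1 is the smallest p that 3 nerves against 3 allow. In Dgcr8 control 2 this share rested on full-length Ntrk3-206, at 4.69 TPM beside 2.51 of Ntrk3-201 and 6.48 of Ntrk3-202. Ntrk3-206 was at 0 in all other Dgcr8 libraries. Full-length Ntrk3-205 was at 0, 5.64 and 1.53 TPM in Dgcr8 iKO. The share without these 2 transcripts was not tested.

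Gfra1 held 373, 406 and 367 CPM in Dicer iKO against 418, 359.8 and 343 CPM in controls (log2 0.03, SE 0.11, adjusted p = 0.851), and 456, 383 and 419.8 against 334, 300.0 and 400.0 CPM for Dgcr8 (0.28, SE 0.16, adjusted p = 0.165). Both pairs of groups overlapped. By transcript, Gfra1-204, named after its values were seen, was called higher in Dgcr8 iKO (2.91, SE 0.50, adjusted p = 0.0148). It is an 841-base transcript without a full reading frame. In Dicer iKO it was at 1.44, higher in every nerve but not called (adjusted p = 0.156). No other Gfra1 transcript tested was called in either mutant. Gfra2 in Dicer iKO was 34.2, 30.7 and 28.5 CPM, above the 26.0, 17.2 and 15.0 CPM of controls in every nerve (0.69, SE 0.21, adjusted p = 0.0516). For Dgcr8 it was 15.9, 23.5 and 18.8 against 16.6, 17.2 and 14.6 CPM (0.27, SE 0.17, adjusted p = 0.225).

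Gfra3 remained a low-count gene in the iKO libraries. Dgcr8 iKO nerves held 19, 48 and 16 counts and their controls 12, 1 and 9, so the groups did not overlap, and the fold rested on a control nerve with 1 count. The log2 fold change was 1.76 (SE 0.57, adjusted p = 0.0275), with a ratio of summed counts per library size of 3.49 (95% interval 2.16 to 5.87, counting error only). The call was not made without Dgcr8 control 2 (1.31, adjusted p = 0.0740), Dgcr8 control 3 (1.83, adjusted p = 0.0718) or Dgcr8 iKO 2 (1.25, adjusted p = 0.127). Dicer iKO nerves held 19, 6 and 21 counts against 15, 33 and 15 (−0.38, SE 0.48, adjusted p = 0.608).

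Ret was 26.0, 27.1 and 16.3 CPM in Dicer iKO and 16.1, 10.3 and 4.59 CPM in controls, groups that just failed to overlap. The log2 fold change of 1.17 (SE 0.40) missed the threshold (adjusted p = 0.0780), but was called by DESeq2 (adjusted p = 0.0234), by edgeR's exact test (adjusted p = 0.0318), and without Dicer control 1 (1.63, adjusted p = 0.0200). Across Dicer controls 1, 2 and 3, Ret, Gfra1, Gfra2 and Ntrk2 lay in the same order as the macrophage and fibroblast sums given for Ngfr. Sort1 lay in the reverse order, at 195, 243 and 345 CPM. The part of this in the differences of these receptors was not tested. In the Dgcr8 comparison Ret was 5.07, 12.6 and 4.43 against 10.7, 6.67 and 8.50 CPM, with overlap (−0.22, SE 0.36, adjusted p = 0.654).

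Whether the mutants differ in effect was tested as the Dgcr8 effect minus the Dicer effect. By edgeR 0 of 8 receptors passed an adjusted p of 0.05, beside 0.0148% of all genes, with DESeq2 also at 0. An unadjusted p under 0.05 by edgeR was seen for 3 of 8, and the share of all genes at that limit was not counted. The difference for Ngfr was 1.06 on the log2 scale (SE 0.35, interval of 2 SE 0.37 to 1.76, adjusted p = 0.225). Without Dicer control 3 it was 1.37 with an adjusted p of 0.00521. It was 2.14 for Gfra3 (SE 0.83, adjusted p = 0.297) and −1.38 for Ret (SE 0.61, adjusted p = 0.346).

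Levels between genes were compared per length, as CPM divided by transcript length in kilobases and summed over a gene's transcripts (RPKM). In uncrushed nerves the order was Gfra1 (32.9), Sort1 (19.8), Ngfr (9.90), Gfra2 (9.09), Ntrk2 (8.26), Ntrk3 (7.05), Ret (0.998) and Gfra3 (0.636 RPKM). From Ngfr to Ntrk3 each gene overlapped the next, as did Ret and Gfra3, so by the ranges across nerves only Gfra1, Sort1 and that middle set were separated. Within each single nerve, uncrushed or contralateral, Ret was above Gfra3. In uncrushed nerves the values were 1.19, 0.784 and 1.02 against 0.677, 0.377 and 0.856 RPKM. In contralateral nerves the order was the same, with Gfra1 at 36.8 and Ngfr at 12.2 RPKM, and there Ngfr did not overlap Gfra2. In crushed nerves Ngfr (305 ± 48.9 RPKM, SD, n = 4) and Gfra1 (268 ± 27.8 RPKM) overlapped each other at the top, and Ntrk2 (11.1) stood above Sort1 (7.17), Gfra2 (4.56), Ntrk3 (1.31), Ret (0.535) and Gfra3 (0.12 RPKM), none of these overlapping its neighbour. Within each single crushed nerve Ngfr was above Gfra1, at 349, 280, 344 and 249 against 291, 268, 283 and 229 RPKM, so the overlap is one of ranges across nerves. The Gfra1 sum includes the 841-base Gfra1-204, which rose by 7.09 on the log2 scale against uncrushed nerves. The part of that short transcript in the overlap with Ngfr was not tested. In both iKO controls Gfra1 led, at 93.6 and 83.3 RPKM for Dicer and Dgcr8, followed by Sort1 at 38.6 and 51.4 and Ngfr at 18.7 and 13.1 RPKM. In both mutants Ngfr, at 48.4 and 70.5 RPKM, stood above Sort1, at 32.3 and 40.4 RPKM, without overlap.

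**Figure D4:**
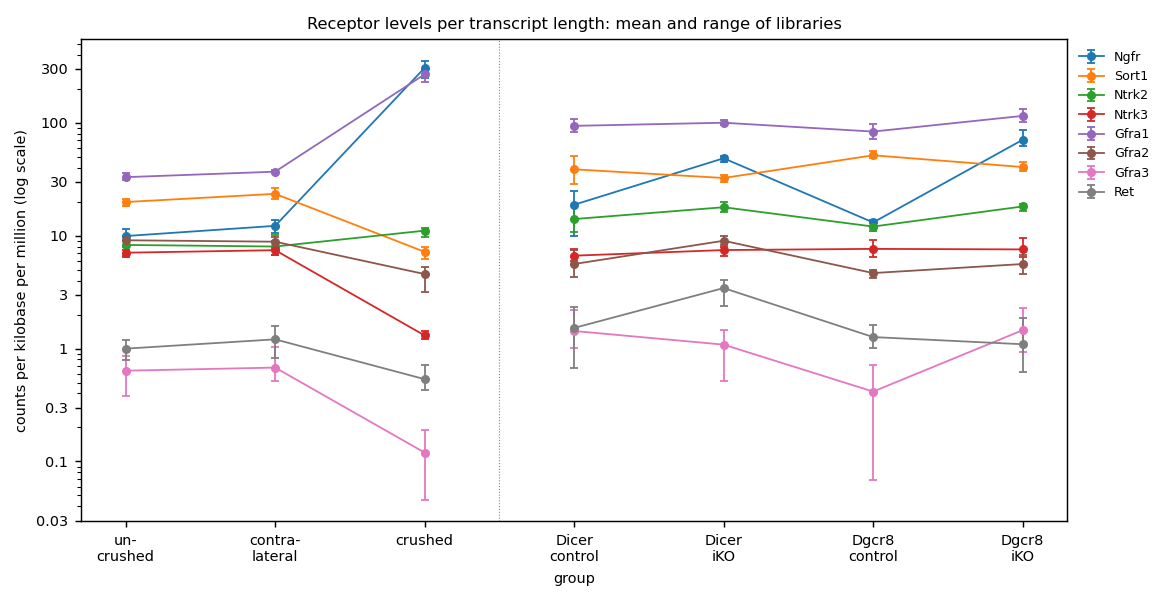
Mean level of each receptor (lines by gene, log axis) in RPKM for each group, with bars from the lowest to the highest library, the crush groups and the iKO groups joined separately. Ngfr lies below Sort1 in uncrushed, contralateral and both control groups and above it in crushed nerves (305 against 7.17) and in both mutants.

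The genes most like each receptor were taken as those with the smallest Euclidean distance over 4 log2 fold changes (crushed or contralateral against uncrushed, and each mutant against its control), among 12158 genes and over 23 libraries. For Ngfr the nearest was Rgs16 at 0.77, so no gene lay as close to it as Crtap did to Ntrk2 (0.05). The distance is not scaled for the size of the fold changes, which against uncrushed nerves were 5.05 for Ngfr and 0.51 for Ntrk2. It therefore does not compare how particular the 2 patterns are. The nearest genes were Ctsf for Ntrk3 (0.21), Sema4c for Sort1 (0.13), Rassf3 for Gfra1 (0.30), Inpp4b for Gfra2 (0.17) and Mospd3 for Ret (0.37), all distances on the log2 scale. Gfra3 was not tested in every comparison and has no such value.

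Among the ligands, Gdnf, which signals through Gfra1 and Ret, was called higher in both crush comparisons and in both mutants. It was 74.7 to 138 CPM in crushed, 1.25 to 3.41 CPM in uncrushed and 0.942 to 1.33 CPM in contralateral nerves. The groups did not overlap, with log2 fold changes of 5.82 against uncrushed (SE 0.32, adjusted p = 1.51e-08) and 6.39 against contralateral nerves (SE 0.24, adjusted p = 1.75e-11), beside medians of −0.03 and −0.06 for all genes. In Dicer iKO it was 1.46 to 3.45 CPM against 0.00 to 0.144 CPM in controls (adjusted p = 0.00727), and in Dgcr8 iKO 6.13 to 11.8 CPM against 0.118 to 0.816 CPM (adjusted p = 4.96e-05), with controls around or below the 3-count floor. Bdnf, a ligand of TrkB named after its values were seen, was tested after crush against uncrushed nerves and was not called (−0.85, SE 0.46, adjusted p = 0.122).

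Of 12 other receptors and co-receptors, 3 of 8 tested rose and 3 fell against uncrushed nerves (median 0.41), and 3 of 9 rose and 4 fell against contralateral nerves (median −0.39), beside 15.3% higher and 21.1% lower, and 14.6% and 13.6%, of all genes. The sortilin relatives parted. Sorl1 was higher (1.81 and 1.92) and Sorcs2 too (1.54 and 1.45), while Sorcs1 fell by 2.60 and 2.90, and Sorcs3, named after its values were seen, fell by 1.08 and 1.25. The p75NTR relative Nradd rose (1.45 and 1.10), Tnfrsf19 was lower (−1.49 and −1.32), and the Nogo receptor Rtn4r, tested against contralateral nerves only, was lower there (−1.67). In the mutants 1 of 10 rose and 0 fell for Dicer by edgeR (median 0.07), beside 7.37% and 1.64% of all genes. By the same test 4 of 10 were at an unadjusted p under 0.05, beside 4736 of 13045 genes. For Dgcr8 1 of 9 rose and 1 fell (median −0.49), beside 13.4% and 6.99% of all genes. The gene that rose was Sorl1 in each, at 1.04 and 1.25, and Tnfrsf19 was the one that fell in Dgcr8 iKO (−1.24). The Dicer call of Sorl1 was not made without Dicer control 2 (adjusted p = 0.0791), Dicer control 3 (0.83 on the log2 scale), Dicer iKO 2 (adjusted p = 0.0783) or Dicer iKO 3 (adjusted p = 0.0948).

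Of 18 genes that process p75NTR or signal from it, 16 were tested in each comparison. After crush 0 were called against uncrushed nerves by edgeR, though 12 passed the adjusted p below 2-fold (median 0.42), and 1 fell against contralateral nerves, Maged1, an intracellular p75NTR partner, at −1.09 (−0.99 without contralateral nerve 2 and −0.93 with no filter on counts). In each mutant 1 of 16 rose, no more than the shares of all genes (7.37% for Dicer and 13.4% for Dgcr8). That gene was Adam17, the sheddase that cleaves the p75NTR ectodomain. It was 141 to 169 against 59.6 to 66.1 CPM for Dicer (log2 1.32, SE 0.11, adjusted p = 0.00134) and 199 to 243 against 72.5 to 85.9 CPM for Dgcr8 (1.48, SE 0.13, adjusted p = 1.31e-05), and 0.47 after crush, under the 2-fold limit.

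Of 20 adaptors of Trk and Ret kinases, 4 rose and 1 fell against uncrushed (median 0.29) and 4 rose and 2 fell against contralateral nerves (median 0.19), beside 15.3% higher and 21.1% lower, and 14.6% and 13.6%, of all genes. Dok4 (3.57 and 3.43), Dok5 (2.30 and 2.97), Gab2 (2.51 and 2.45) and Sh2b2 (1.59 and 1.90) rose in both, and Frs3 fell in both (−1.70 and −1.49), though it was at −0.95 without uncrushed nerve 1. Gab1, named after its values were seen, fell against contralateral nerves (−1.38). In Dicer iKO 2 of 19 tested rose, Sh2b2 (2.94) and Shc2 (1.82), beside 7.37% of all genes. In Dgcr8 iKO 4 of 19 rose and 1 fell, beside 13.4% and 6.99%, with Sh2b2 at 2.34, Shc2 at 2.14, Gab2 at 1.22, Dok6, named after its value was seen, at 1.11, and Frs3 at −1.10. The Dicer call of Shc2 was not made without Dicer control 2, Dicer iKO 2 or Dicer iKO 3 (adjusted p = 0.0895, 0.0900 and 0.0907). The Dgcr8 call of Frs3 was not made without Dgcr8 iKO 1 (−1.0) or Dgcr8 iKO 3 (−0.93). Between contralateral and uncrushed nerves 0 genes of these lists and neither Gdnf nor Bdnf were called by edgeR. By that test 5 of 16 p75NTR genes, 2 of 19 adaptors and 0 of 9 other receptors were at an unadjusted p under 0.05, beside 3165 of 17722 genes.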

How the data were processed

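Total RNA of 23 sciatic nerves was sequenced. Per the study's methods, the authors trimmed reads with Trimmomatic, aligned them to GRCm38 with STAR and quantified transcripts with RSEM, and deposited expected counts and TPM per transcript. FPKM per transcript, also deposited by the authors from RSEM, were not used for any result. Crush libraries were made with the SMARTer Stranded Pico kit according to the labels and the iKO libraries with a Ribo-Zero TruSeq kit, which the study's methods name for all. One short transcript took 61.4 to 71.8% of TPM in each crush library and 2.38 to 9.44% in each iKO library, which lowers the TPM of all others there. The sample titled uncrushed 3 is numbered 4 in its description, and the title was used.

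Expected counts were summed per gene, rounded to whole numbers and tested for each comparison with edgeR 4.0.16 (limma 3.58.1, R 4.3.3), with genes filtered by filterByExpr at a minimum count of 10, TMM scaling, the quasi-likelihood F test and Benjamini-Hochberg adjustment over all genes tested. As in the study, a call takes an absolute log2 fold change of 1 or more with an adjusted p not above 0.05. SE is the fold change divided by the root of F. The difference between mutants used the adjusted p alone. Full-length shares of TPM were compared with exact two-sided permutation tests. RPKM were computed from the counts and the transcript widths in the tables. Intervals of count ratios cover counting error only, and the interval of 2 SE reflects the spread between libraries. The p-values measure the spread between these samples. Other settings were DESeq2 1.42.0, edgeR's exact test, RLE scaling, other filters, all groups in one fit, a replicate block, a stricter adjusted p and each library left out. On simulated counts with 200 genes changed, 198 to 200 were found at a log2 size of 2 in the 5 comparisons of groups and 187 for the difference between mutants, and for transcripts 100 to 171 of 200. The changed genes and transcripts were drawn only from those with higher mean counts. This recovery therefore does not cover low-count receptors such as Gfra3, nor changes smaller than the simulated size. Figures were drawn with matplotlib 3.10.9 in Python 3.11.15.

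The 8 receptors and all lists were chosen with earlier results of these data known. Values are given for each receptor, for Trk transcripts with a mean of at least 0.1 TPM in some group whose tests the text uses, for up to 6 called genes a list by the largest fold change, and for the nearest gene of the 3 found per receptor. Values of Sort1 and Gfra1 transcripts were added after they were seen. Ngfrap1 and Gpr126 matched no symbol. The result of one gene of the ligand list is not reported here. The 27 replicate pairs all differed beyond sampling noise, so no library was counted as a copy. Sequences were read from the GENCODE M21 transcript sequences, with positions on GRCm38 from its annotation.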

Additional observations from a re-analysis of the deposited data

Results flagged for a closer look

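Within a group of 4, one nerve stood apart from the rest by Dixon's test in 2 of 16 groups checked, and chance alone gives about 1 in 20. Crushed nerve 1 held 3.77 CPM of Ntrk3, against 3.21 to 3.26 CPM in the other crushed nerves and 18.2 CPM or more in every reference nerve. Contralateral nerve 1 held 2.07 CPM of Gfra3, or 22 counts, against 10 to 14 counts in the other contralateral nerves. No cause was tested for either.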

How the results depend on the processing

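Of 467 alternative values of counts and shares, 400 kept their direction and side of the threshold, and of 1408 for named genes and transcripts 1340 did. In the crush comparisons the 8 receptors' counts of calls held in all planned settings within 1.5 times. The number of all genes called higher against uncrushed nerves was 1747 (2673) with at least 10 counts in every sample. Numbers in parentheses are those of the report's setting, and except where said the cause of a change was not tested.

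For contralateral against uncrushed nerves (0 higher and 0 lower), 13 genes were higher and 128 lower with no filter, 2 and 175 by edgeR's exact test, and 20 lower by DESeq2, 1 with all groups in one fit, and 0 to 95 with one library left out. For Dicer iKO (1 receptor higher), 2 were higher by DESeq2 and by the exact test, 0 at an adjusted p of at most 0.01 and 0 to 2 with one library left out. Genes higher (961) were 522 at 0.01 and 515 to 1093 with one library left out, and genes lower (214) 58 and 57 to 375. For Dgcr8 iKO (2 receptors higher), 1 was higher with at least 10 counts in every sample and at 0.01, and 1 to 2 with one library left out. For the difference between mutants (2 genes), RLE gave 1, no filter 20, at least 10 counts in every sample 0, DESeq2 240 and leaving out one library 0 to 401, with 0 to 1 receptors.

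Replicate numbers are shared between groups, but same-numbered samples did not deviate together in all pairs of any comparison (mean correlations −0.0787 to 0.0450), so the numbers were not taken as pairs. With a replicate block, the called Trk transcripts against uncrushed nerves went from 4 to 0 at log2 values of −1.17 (Ntrk2-201), −2.58 (Ntrk3-201), −3.31 (Ntrk3-202) and −1.45 (Ntrk3-204), genes lower in contralateral nerves from 0 to 6, receptors higher from 1 to 0 for Dicer (Ngfr 1.46, adjusted p = 0.0506) and from 2 to 1 for Dgcr8 (Gfra3 1.70, adjusted p = 0.0691), genes for Dicer to 548 higher and 92 lower, and genes that differ between mutants to 0.

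With one library left out, the called Trk transcripts against uncrushed nerves ranged from 2 to 4. The Ntrk2 share ranged from −10.1 to −7.55 points, with an exact permutation p of 0.0667 to 0.1, the smallest those sizes allow. The Ntrk3 share ranged from −8.92 to 17.0 points against uncrushed, from −11.9 to 14.1 against contralateral, from −3.39 to 9.58 for contralateral against uncrushed, and from −2.82 to 9.26 for Dicer. Uncalled log2 values that changed sign were, for Dicer, Gfra1 (−0.0248 to 0.12), Gfra3 (−0.63 to 0.0660), Ntrk2-201 (−0.27 to 0.28), Ntrk3-201 (−0.29 to 0.62), Ntrk3-202 (−0.14 to 0.23) and Ntrk3-205 (−0.11 to 1.06), for Dgcr8, Ntrk3 (−0.24 to 0.0483), Ret (−0.86 to 0.0431) and Ntrk3-205 (−0.12 to 2.18), and Sort1 between mutants (−0.34 to 0.0840). Depth limits Gfra3, Ret and the Ntrk3 transcripts of crushed nerves, and the 3 nerves of an iKO group limit every share.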
